A study of Mus musculus with 87 samples.

Results

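The embryonic face and the embryonic heart were compared in wild-type mouse embryos at embryonic day 11.5 (E11.5). The members of this comparison are 8 of the 64 RNA-seq libraries among the 87 samples of the series, namely the wild-type libraries of lines B3 and B5: 4 of face (2 from each line) and 4 of heart (2 from each line). The rule that picks them uses the labels of genotype, tissue and line. The study deleted single boundaries between topologically associating domains (TADs) from the mouse genome, 1 boundary in each line, in the FVB strain, and these 8 libraries come from the littermates that carry no deleted copy of boundary B3 or B5. No agent was given to any group. The same contrast was read again in 16 homozygous libraries, 8 of face and 8 of heart, from lines B3, B5, B6 and B7, in which both copies of boundary B3, B5, B6 or B7, respectively, are deleted. The labels do not say which face and which heart came from the same embryo, and the p-values measure the spread between libraries only.

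At this stage the heart is a beating, looped tube that is being divided into chambers. Its wall holds cardiomyocytes, the endothelial lining called endocardium, cushions of mesenchyme that later form valves and septa, and an outer sheet called epicardium, and it is filled with blood. The face is built from prominences whose mesenchyme comes largely from the cranial neural crest, under a sheet of surface ectoderm, with olfactory and lens placodes, sensory ganglia and head muscle precursors nearby. Regional identity in the facial mesenchyme is set by homeodomain factors of the Dlx, Alx, Msx and Pax families, and the identity of heart muscle by Gata, Nkx, Hand, Mef2 and T-box factors. The organs share the signals of the BMP, FGF, Wnt, Notch, hedgehog and retinoic acid pathways, which each organ reads with different receptors and targets.

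Each wild-type library held 17075533 to 26483003 expected counts (the estimated number of reads assigned to genes by the authors' quantification) in the face and 18790226 to 22610007 in the heart. Values below are CPM, the counts of a gene scaled to 1000000 counts in a library after TMM scaling, unless TPM, which also divide by transcript length, are named. Where 4 values of a tissue are given, they are B3 replicates 1 and 2 and then B5 replicates 1 and 2. The labelled tissues carried their defining markers. The 7 cardiomyocyte markers summed to 19939, 12927, 17967 and 14625 CPM in the hearts and 59.5, 26.2, 47.1 and 86.5 CPM in the faces, and the 7 facial mesenchyme markers summed to 1177, 1109, 1150 and 1265 CPM in the faces and 155, 164, 158 and 175 CPM in the hearts. The libraries of a tissue were not alike in everything. In the hearts, 109561, 30385, 121055 and 107944 CPM came from 19 erythroid genes, so B3 heart 2 held the least blood RNA, and the 29 listed Hox genes summed to 67.2, 274, 132 and 308 CPM, highest in the second replicate of each line. The liver product Alb stood at 28.1 CPM in B3 heart 2 and 34.7 CPM in B5 heart 1 against 0 in the other 2 hearts. Y-linked transcripts were present in 1 of 4 faces and 1 of 4 hearts, both from B5. The 2 lines also carry different set codes in their library labels, and line and set cannot be told apart.

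The tissues differed in the majority of the genes that could be tested. Of 15283 genes tested with edgeR's quasi-likelihood test, with line as a covariate, 4620 (30.2%) were higher in the face and 4593 (30.1%) higher in the heart at an adjusted p under 0.05. A stricter test asked for a difference of more than 2-fold, and called 1049 genes (6.86%) higher in the face and 1523 (9.97%) higher in the heart. The values of all 4 libraries of a tissue lay outside the range of the other tissue for 1046 of the 1049 genes and for 1519 of the 1523. These genes were called from the same libraries, so the separation follows largely from the call and is no separate support for it. Most differences were small, and 64.6% of the genes called higher in the face and 51.6% of those called higher in the heart differed by a fitted factor of less than 2. The median log2 fold change of face over heart was 0.03 over all genes tested, which is the background for the list medians below. For the counts of list members called below, the background is 30.2% higher in the face and 30.1% higher in the heart. For counts past 2-fold it is 6.86% and 9.97%. A signed value in parentheses after a gene is its log2 fold change of face over heart, negative where the heart was higher. In whole organs, a smaller share of a cell type and less RNA per cell cannot be told apart.

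**Figure D1:**
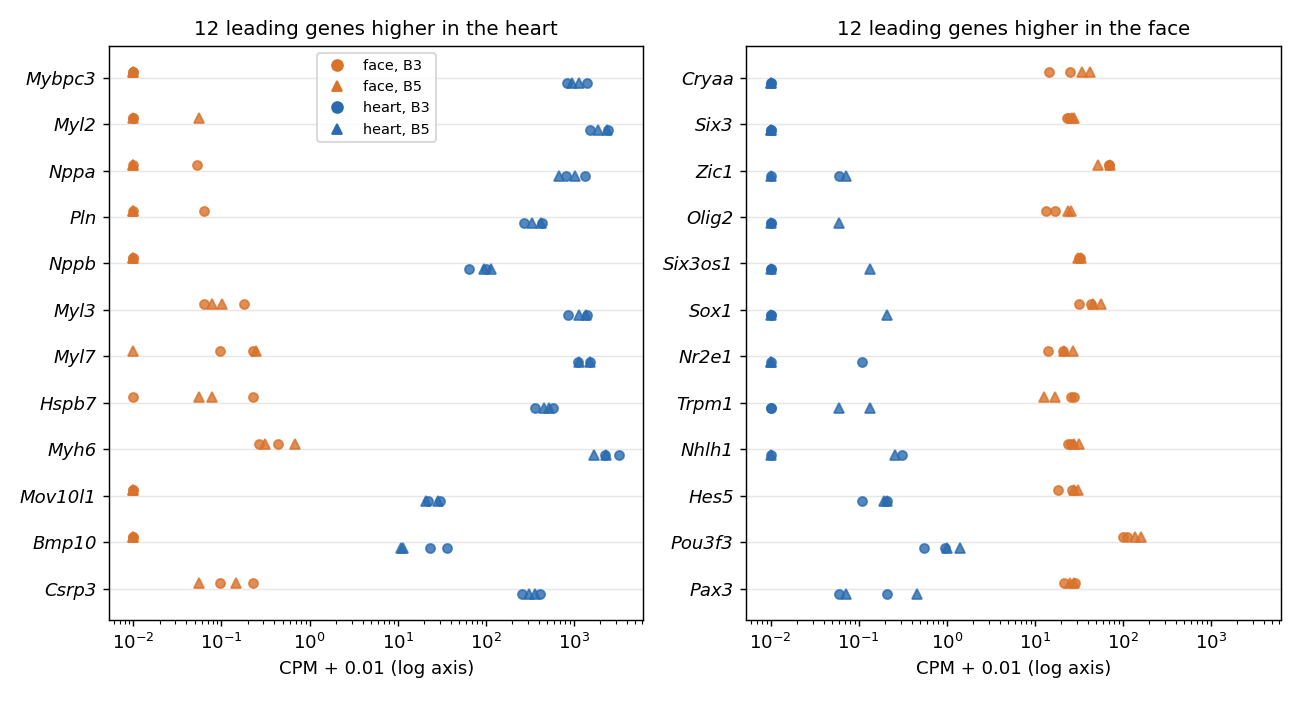
Expression (CPM, log axis, with 0.01 added so that 0 can be drawn) of the 12 genes with the largest difference in each direction, 1 point per library, faces in orange and hearts in blue, circles for B3 and triangles for B5. The genes were picked only among those in which the 4 faces and the 4 hearts do not overlap. Genes of contraction lead among the heart genes, and genes of eye and forebrain lead among the face genes.

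The largest differences of all were those of heart muscle. Of 37 sarcomere genes tested, 36 were higher in the heart, 34 of them by more than 2-fold, and the median log2 fold change was -7.11. Together the listed sarcomere genes took 28083 to 38009 TPM in the hearts and 636 to 874 TPM in the faces. Myl2, the ventricular myosin light chain, measured 2457, 1527, 2401 and 1912 CPM in the hearts and 0, 0, 0.0453 and 0 CPM in the faces, a ratio of 192373-fold (95% counting interval 34527 to 7598380). Mybpc3, the cardiac myosin-binding protein C, measured 1408, 842, 1139 and 946 CPM in the hearts and had no count in any face, so it was at least 33697-fold higher in the heart when the floor of 3 counts over the 4 faces is used. Such intervals and bounds cover counting error only. In both genes every heart stood far above every face, and B3 heart 2 was the lowest of the hearts. The atrial light chain Myl7 (1553, 1134, 1550 and 1158 CPM in the hearts, log2 fold change -13.19 ± 0.34 SE), the light chain Myl3 (-13.53) and the myosin heavy chains Myh6 (-12.46) and Myh7 (-10.75) differed by similar amounts. The Z-disc protein Csrp3 (-11.42) and the small heat-shock protein Hspb7 (-12.55), which helps maintain sarcomeric filaments, were also among the 12 leading heart genes. Per length, Myl2 was the most abundant of the list, at 5046 ± 596 TPM (mean ± SD, n = 4) in the hearts, followed by Actc1, the cardiac alpha-actin, at 4767 ± 623 TPM in the hearts and 52.3 ± 28.8 TPM in the faces. The heart-higher members include genes of smooth muscle and early muscle, such as Acta2 (-5.44) and Myl9 (-4.09). Myom2, an M-band protein, was the 1 tested member that was not called, at 0.595, 0.397, 0.989 and 0.597 CPM in the hearts and 0.592, 0.0430, 0.272 and 0.575 CPM in the faces.

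The 250 bases before the start of 3 of these heart genes, with those of the embryonic globin Hbb-y and the lens crystallin Cryaa described further on, are shown as examples from the heart, blood and eye groups, Nppa, Myl7 and Cryaa from the leading genes, Actc1 as an abundant sarcomere gene and Hbb-y as the most abundant globin. Sequences are from RefSeq (GRCm38.p6, the same build as mm10), on the strand of the gene and 5′ to 3′. Capitals mark the matches, on either strand, to 6 motifs that were searched. They were the TATA box with the letters TATAAA, the GATA-factor motif in the form AGATAA and with its first letter changed in the form TGATAA, an E-box with the letters CAGCTG, a homeodomain core with the letters TAATTA, the CArG box bound by serum response factor and the MEF2 site.
Nppa, chr4:148000472-148000721, plus strand: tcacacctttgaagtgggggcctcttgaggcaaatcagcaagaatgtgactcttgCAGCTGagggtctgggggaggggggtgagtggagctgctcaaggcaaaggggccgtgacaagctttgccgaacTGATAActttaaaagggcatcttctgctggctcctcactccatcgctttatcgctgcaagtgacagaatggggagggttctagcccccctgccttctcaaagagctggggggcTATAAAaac
Myl7, chr11:5898783-5899032, minus strand: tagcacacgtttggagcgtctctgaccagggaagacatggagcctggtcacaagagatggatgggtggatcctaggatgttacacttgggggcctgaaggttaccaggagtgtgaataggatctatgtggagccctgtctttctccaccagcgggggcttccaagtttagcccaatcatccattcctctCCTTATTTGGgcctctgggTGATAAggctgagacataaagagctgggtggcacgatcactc
Actc1, chr2:114052876-114053125, minus strand: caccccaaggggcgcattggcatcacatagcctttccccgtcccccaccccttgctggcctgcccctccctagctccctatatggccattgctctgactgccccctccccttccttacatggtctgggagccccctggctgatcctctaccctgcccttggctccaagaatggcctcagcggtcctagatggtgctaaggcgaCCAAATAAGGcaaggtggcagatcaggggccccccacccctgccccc
Hbb-y, chr7:103853208-103853457, minus strand: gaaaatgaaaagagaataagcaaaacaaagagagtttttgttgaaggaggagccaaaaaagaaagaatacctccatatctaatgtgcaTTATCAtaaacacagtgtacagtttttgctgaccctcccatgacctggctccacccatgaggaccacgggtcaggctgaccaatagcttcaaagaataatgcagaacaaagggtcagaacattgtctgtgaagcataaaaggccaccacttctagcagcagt
Cryaa, chr17:31677681-31677930, plus strand: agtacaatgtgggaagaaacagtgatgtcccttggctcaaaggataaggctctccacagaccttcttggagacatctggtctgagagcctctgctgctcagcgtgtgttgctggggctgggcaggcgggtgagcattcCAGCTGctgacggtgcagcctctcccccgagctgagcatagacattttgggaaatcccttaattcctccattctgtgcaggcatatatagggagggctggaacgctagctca
The window of Nppa held a TATA box, a GATA motif and an E-box, that of Myl7 a GATA motif and a CArG box, and that of Actc1 a CArG box. The window of Hbb-y held a GATA motif on the opposite strand, and that of Cryaa an E-box. Over the 27025 RefSeq windows of the same length, 12.97% held the TATA box, 16.99% the GATA motif, 12.77% the E-box, 4.903% the homeodomain core, 1.399% a CArG box and 3.008% a MEF2 site. A match describes these letters only. Windows were found for 1858 of the 2572 genes called by more than 2-fold (72.2%) and for 11366 of the 15283 tested (74.4%), and motif shares were not compared between the tissues.

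Genes that move calcium and carry the cardiac current differed in the same direction as the sarcomere. Of 30 tested, 28 were higher in the heart (22 by more than 2-fold), 1 was higher in the face, and the median log2 fold change was -3.55. Pln, the regulator of the sarcoplasmic calcium pump, measured 439.5, 271, 424 and 341 CPM in the hearts and a single count in 1 face, a ratio of 34219-fold (95% counting interval 6141 to 1351635). The pump itself, Atp2a2, was the most abundant member at 383 ± 95.4 TPM in the hearts, with 80.3 ± 13 TPM in the faces and a log2 fold change of -2.70 ± 0.16 SE. The sarcoplasmic proteins Casq1 (-8.90) and Trdn (-8.92), the calcium release channel Ryr2 (-7.22), the potassium channel subunit Kcne1 (-8.17) and the membrane protein Popdc2 (-7.90) differed more. The gap junction gene Gja1 was the exception, at 343, 320.1, 280.2 and 339.8 CPM in the faces and 251, 226, 207 and 256 CPM in the hearts (0.45 ± 0.10 SE).

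Among 30 cardiac transcription factors tested, 21 were higher in the heart, 5 higher in the face and 4 not called (median -2.01). Gata4 measured 288, 226, 256 and 231 CPM in the hearts and 0, 0.129, 0.272 and 0.237 CPM in the faces. Ankrd1, a stretch-responsive cofactor in the nucleus and sarcomere (-10.65), Gata5 (-8.09), Tbx20 (-7.50), Nkx2-5 (-6.66) and Hopx (-6.60) were the other members with the largest differences. Hand2, which acts in heart and jaw alike, was well expressed in both tissues, with 183, 143, 157 and 165 CPM in the hearts and 68.1, 62.4, 69.2 and 46.2 CPM in the faces (-1.40 ± 0.13 SE). Members of the list that were higher in the face included Irx3 (1.59), Prdm16 (1.45), Isl1 (1.31) and Tbx2 (1.24). Isl1 marks sensory neurons as well as heart progenitors, and Prdm16 acts in the palate as well as in heart muscle. Shox2 was among the members not called.

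The secreted products of the heart included genes with no count, or a single count, in the faces. Of 12 tested, 9 were higher in the heart and 2 in the face. Nppa, atrial natriuretic peptide, measured 1330, 828, 674 and 1024 CPM in the hearts and a single count in 1 face, a ratio of 91520-fold (95% counting interval 16426 to 3614893). Nppb, the related B-type peptide, measured 102, 64.7, 115 and 95.2 CPM in the hearts and was at 0 in the faces, which makes it at least 2902-fold higher. Bmp10, a growth factor of trabecular muscle, was at least 652-fold higher, with 36.1, 23.1, 11.1 and 11.5 CPM in the hearts, B3 above B5. The enzyme Pam, which amidates peptide hormones (-4.04), adrenomedullin (Adm, -2.78) and Igf2 (-1.75) were higher in the heart as well. Igf2 was abundant in both organs, with 8270, 6338, 8352 and 7692 CPM in the hearts and 2503, 2083, 2324 and 2161 CPM in the faces. Apln, the apelin ligand (1.49), and Igf1 (0.58) were higher in the face. Mov10l1, an RNA helicase best known from the germ line, was among the 12 leading heart genes with 30.1, 22, 28.8 and 21.1 CPM in the hearts and no count in the faces, at least 789.9-fold.

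Energy metabolism followed. Of 35 genes of heart and muscle metabolism tested, 34 were higher in the heart and 1 in the face, with a median of -1.96. The muscle isoforms of the respiratory chain, Cox6a2 (-8.84) and Cox7a1 (-6.43), myoglobin (Mb, -7.24), the carnitine palmitoyltransferase Cpt1b (-6.77), which admits fatty acids to mitochondria, and the glycogen phosphorylase Pygm (-6.57) were near the top, and Ckmt2, a mitochondrial creatine kinase, was at least 84.2-fold higher. Cox8b had 1 count in the faces, a ratio of 536-fold (95% counting interval 95.7 to 21217). The brain-type creatine kinase Ckb was the 1 member higher in the face (0.65). All 83 tested nuclear genes of oxidative phosphorylation were higher in the heart, against 30.1% of all genes tested, by a median log2 fold change of -0.85. Past the 2-fold test were 9 of the 83, near the share of all genes tested (9.97%). Their summed TPM differed less (log2 of face over heart -0.38) than their summed CPM (-0.90). Of 15 genes encoded by the mitochondrial genome, 14 were higher in the heart (median -0.94). These values varied among the hearts, mt-Co1 being 5309, 5583, 9244 and 5314 CPM with B5 heart 1 the highest, against 3183, 3932, 3538 and 2235 CPM in the faces.

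The lining of the heart was the next layer. Of 32 genes of endocardium and endothelium tested, 23 were higher in the heart, 2 higher in the face and 7 not called (median -1.33). Tek, the angiopoietin receptor, measured 136, 102, 146 and 114 CPM in the hearts and 16.7, 12.8, 14.4 and 14.6 CPM in the faces, with no overlap. The pan-endothelial Cdh5 (-1.25) and Pecam1 (-1.40) differed less than Eng (-2.38), the flow-responsive factor Klf2 (-2.40), endothelin 1 (Edn1, -2.55) and Lyve1 (-3.02), and Ramp2, an adrenomedullin receptor subunit, was the most abundant per length. Tal1, which is also an erythroid factor, had the largest difference of the list, -3.44 ± 0.30 SE, and its heart values of 177, 63.5, 154 and 119 CPM were lowest in B3 heart 2, as were the erythroid sums given above. Fli1 (1.00) and Gata2 (1.13) were the members higher in the face, where 4 were called without B5 heart 2. Sox17, Sox18 and Robo4 were not called, and in each of these the second heart replicate of a line was above the first.

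Genes of the endocardial cushions were split. Of 22 tested, 12 were higher in the heart, 6 higher in the face and 4 not called (median -0.61). Hapln1, a linker of hyaluronan matrix, measured 284, 196, 194 and 119 CPM in the hearts and 16.5, 20.9, 12.8 and 11.8 CPM in the faces. Pdlim3 (-4.72), the receptor Tgfbr3 (-1.91) and Nfatc1 (-1.82), a factor of valve endocardium, were also higher in the heart. Those higher in the face included Msx1 (4.16), Twist1 (2.65), Msx2 (1.68), Sox9 (0.90) and Snai1 (0.90), which are also factors of facial mesenchyme. The epicardium stood out more clearly, with 14 of 17 tested genes higher in the heart and 3 in the face (median -2.44). Wt1 measured 30.8, 31.7, 38.5 and 36.3 CPM in the hearts and 0.484, 0.215, 0.544 and 0.913 CPM in the faces, and Upk3b 184, 160.3, 228 and 223 and 1.18, 0.172, 1.18 and 0.947 CPM. Other epicardial genes with large differences included Lrrn4 (-6.18), Tcf21 (-5.23) and Upk1b (-3.39). The 3 listed members higher in the face were Bnc2 (2.05), Gpm6a (0.89) and Aldh1a1 (0.85).

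**Figure D2:**
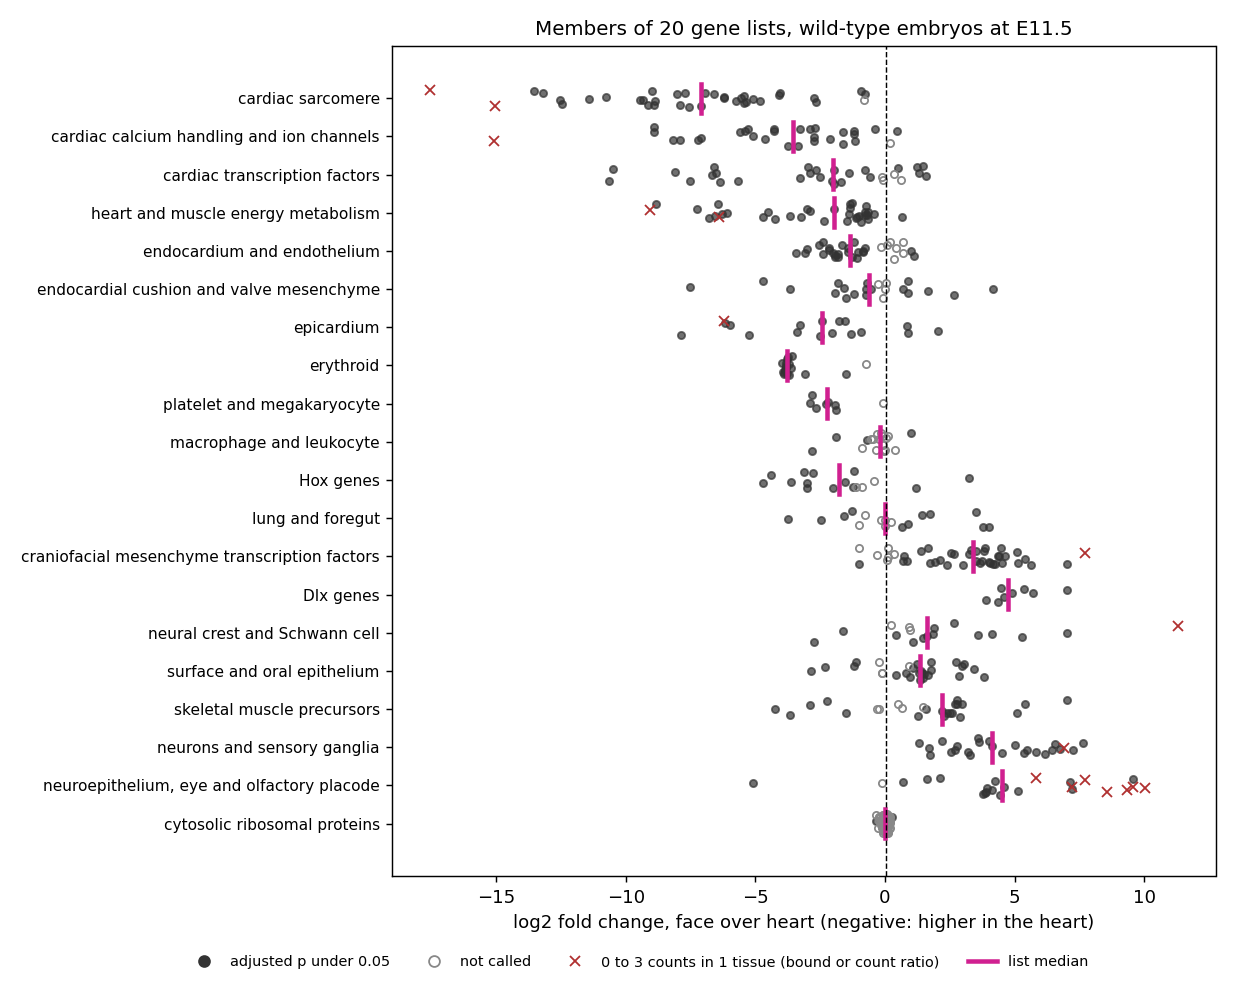
Log2 fold change of face over heart for each tested member of 20 gene lists, 1 point per gene, filled where the adjusted p was under 0.05, with a bar at the list median and a dashed line at the median of all genes tested; genes with 0 to 3 counts in 1 tissue are drawn as crosses, at their lower bound where the count was 0 and otherwise at the ratio of counts. Sarcomere, calcium handling and erythroid genes lie far to the heart side, Dlx, neuronal and eye genes far to the face side, and macrophage and ribosomal genes about the middle.

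By the list median, blood RNA differed more than any cell type of the heart wall apart from its muscle. Of 19 erythroid genes tested, 18 were higher in the heart, all 18 by more than 2-fold, with a median of -3.78. They took 23.6, 8.47, 24.1 and 23.2% of all TPM in the hearts and 2.14, 1.63, 2.67 and 2.49% in the faces. Hbb-y, the embryonic beta-like globin, measured 40588, 11188, 49002 and 42867 CPM in the hearts and 2486, 1900, 3289 and 2490 CPM in the faces, and was the most abundant gene of both organs per length, at 85340 ± 34245 and 9184 ± 2076 TPM. The lowest heart was B3 heart 2, which was still above the highest face. The embryonic Hba-x (-3.81) and Hbb-bh1 (-3.89), the heme enzyme Alas2 (-3.83), the membrane protein Slc4a1 (-3.97) and the factors Klf1 (-3.70) and Gata1 (-3.76) all lay close to the list median, whereas Tfrc, the transferrin receptor of all growing cells, differed by -1.51. Hba-a1 (-3.80) and Hba-a2 share near-identical sequence, as do Hbb-bs and Hbb-bt, so the split of reads between the copies is uncertain. Hba-a2 was the member that was not called, and its heart values of 1882, 966, 138 and 222 CPM fell in another order than those of Hba-a1, which were 26322, 6447, 34667 and 35995 CPM.

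Of the 8 platelet and megakaryocyte genes tested, 7 were higher in the heart by more than 2-fold (median -2.23), led by the integrin Itga2b (-2.91), with Gp9 (-2.65). Gp1bb was not called. Macrophage and leukocyte genes gave another picture, with 3 of 18 higher in the heart, 1 in the face and 14 not called (median -0.19). The median was 0.12 in B3 alone, and the heart-higher count ran from 2 to 5 over the alternatives. Csf1r, the receptor of macrophage growth factor, measured 12.3, 11.2, 14.6 and 20.7 CPM in the hearts and 12.8, 10.3, 11.3 and 11.5 CPM in the faces (adjusted p = 0.115, and 0.0483 without B3 face 1), and the complement genes C1qa, C1qb and C1qc overlapped between the tissues. The 3 heart-higher members were lysozyme (Lyz2, -2.81), Pf4 (-1.90), which platelets also make, and Cx3cr1 (-0.67), and the member higher in the face was Coro1a (1.015).

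Hox genes, and genes best known from foregut and liver, were read in the wild-type hearts. Of 16 Hox genes tested, 11 were higher in the heart, 2 in the face and 3 not called (median -1.77), with 3 higher in the heart in B3 alone. Hox genes mark position along the body axis, and the face lies in front of their domains. Hoxa5 measured 3.97, 31.4, 12.4 and 50.5 CPM in the hearts and 2.15, 0.129, 0.272 and 1.22 CPM in the faces, and Hoxb6 0.248, 9.98, 0.433 and 15.1 and 0.645, 0.687, 0.499 and 0.271 CPM. Both stood high in the second heart replicate of each line, and the call of Hoxb6 (-3.63, adjusted p = 0.0206) was lost without B3 heart 2 (-2.76, adjusted p = 0.112), without B5 heart 2 (-2.17, adjusted p = 0.123) and without B5 face 1 or B5 face 2 (adjusted p = 0.0596 and 0.0713). Hoxa4 (-4.40), Hoxc5 (-3.11) and Hoxb4 (-3.02) were higher in the heart with the same order of libraries, while Hoxd1 (3.26) and Hoxa2 (1.21), a gene of the second pharyngeal arch, were higher in the face. Of 17 lung and foregut genes tested, 4 were higher in the heart, 7 in the face and 6 not called, with 2 higher in the heart without B3 heart 2 or without B5 heart 2. The shares over all genes tested were 30.1% for the heart and 30.2% for the face. Tbx4, a gene of lung mesenchyme, measured 1.34, 29.9, 2.9 and 36.9 CPM in the hearts, and Foxf1, a hedgehog target of foregut mesenchyme, 11.2, 75.9, 31.4 and 83.5 CPM. Foxf1 was not called (-1.01, adjusted p = 0.109), but was without B3 heart 1 (-1.41, adjusted p = 0.00198). Nkx2-1, a factor of lung, thyroid and forebrain, measured 3.08, 16.2, 4.2 and 22.3 CPM in the hearts and 32.1, 29.3, 46.5 and 47.4 CPM in the faces. In these genes too the second heart replicate of each line was the high one. Of the liver list, 4 genes passed the filter on counts (8 without B3 heart 1 or without B5 heart 2, of which 7 were higher in the heart), with Vtn (3.01) higher in the face and Trf (-1.80), Rbp4 (-2.18) and the cadherin Cdh2 (-1.01), a gene of heart muscle junctions, higher in the heart. The call of Rbp4 was lost without B3 face 1 or B3 face 2 (adjusted p = 0.0557 and 0.0517), and its value without B3 heart 2 was -1.14. Afp, a liver product that fell below the filter on counts, measured 0.0496, 144, 6.68 and 0.994 CPM in the hearts. Whether these transcripts came from heart cells or from tissue beside the heart was not tested.

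**Figure D3:**
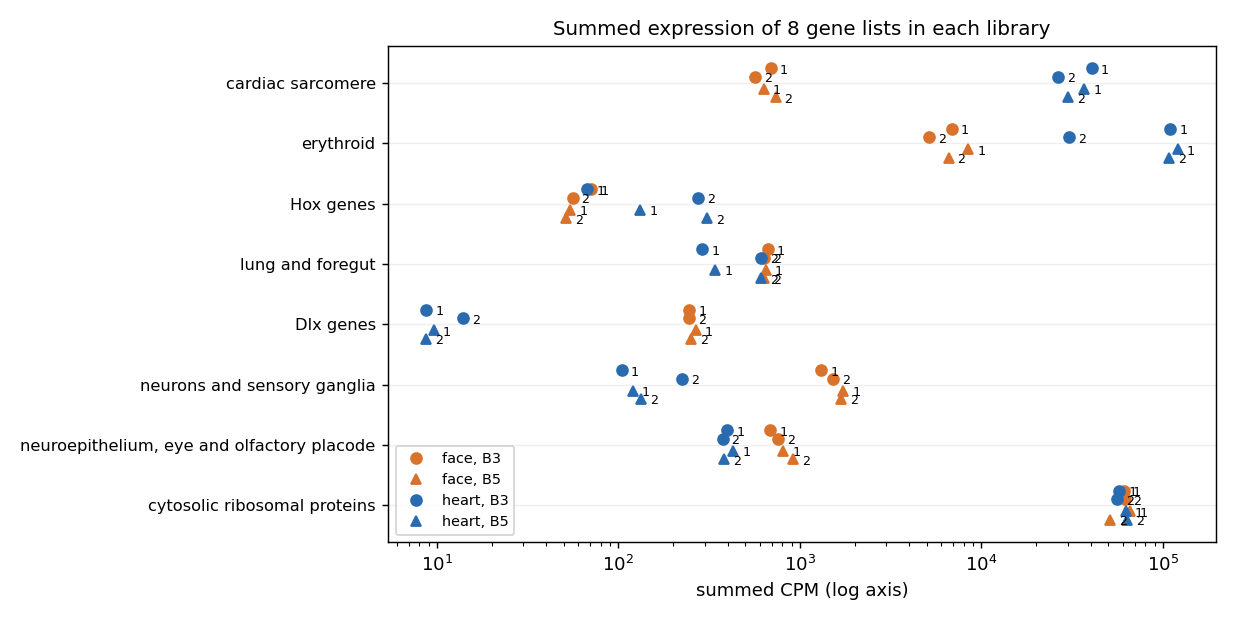
Summed CPM (log axis) of the members of 8 gene lists in each library, faces in orange and hearts in blue, circles for B3 and triangles for B5, with the replicate number beside each point. The sarcomere, neuron and eye sums separate the tissues. Among the hearts, the erythroid sum is lowest in B3 heart 2, and the Hox and foregut sums are highest in the second replicate of each line.

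Most transcription factors of the facial mesenchyme were higher in the face. Of 42 tested, 35 were higher in the face, 31 of them by more than 2-fold, 1 was higher in the heart and 6 were not called (median 3.41). Pax3, a factor of neural crest and muscle precursors, measured 29, 21.7, 25.3 and 27.8 CPM in the faces and 0.0496, 0.199, 0.0618 and 0.448 CPM in the hearts. Foxl2, a factor of periocular mesenchyme, had no count in the hearts and was at least 211-fold higher in the face. Lhx8 (5.62), Pax7 (5.41) and the palate factor Osr2 (5.15) followed, with the frontonasal factors Alx1 (4.64) and Alx4 (4.42), named here after their values were seen. Twist1 was the most abundant of the list per length, at 385.3 ± 30.01 TPM in the faces and 43.6 ± 8.51 TPM in the hearts (2.65 ± 0.08 SE). Ets1 was the member higher in the heart (-1.002), where 2 were called without B3 heart 1, and Shox2, Meis2, Foxc2 and Osr1 were among those not called.

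The Dlx genes, which pattern the pharyngeal arches from above to below, were all higher in the face. The 6 protein-coding members and 2 antisense transcripts were each called by more than 2-fold (median 4.75). Dlx5 measured 32.5, 34.9, 31.9 and 31.9 CPM in the faces and 0.843, 0.199, 1.48 and 0.795 CPM in the hearts, and its neighbour Dlx6 15.2, 14, 17 and 10.1 and 0.496, 0.149, 0.247 and 0.149 CPM. Dlx3 (4.91), Dlx4 (4.58), Dlx1 (4.37) and Dlx2 (3.92) differed by similar factors, and Dlx1 was the member with the most CPM in the faces (74.7, 79.3, 87.6 and 74.6). The antisense transcripts Dlx6os1 (7.01) and Dlx1as (4.48) overlap Dlx6 and Dlx1. The strand setting of the counting is not given in the sources used here, so reads of these transcripts cannot be told from those of their partners.

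Signals and matrix of the face were mixed. Of 33 tested, 17 were higher in the face, 10 in the heart and 6 not called (median 0.66). Fgf8, a signal of the facial ectoderm, measured 5.54, 6.79, 6.84 and 6.12 CPM in the faces and 0.248, 0.546, 0.124 and 0.348 CPM in the hearts, and Fgf17 4.41, 8.98, 7.3 and 12.9 and 0, 0.0497, 0.185 and 0.199 CPM. The retinoic acid binding proteins Crabp1 (3.93) and Crabp2 (2.95) and the related genes Mab21l1 (4.25) and Mab21l2 (3.26) were higher in the face. Mab21l1 was even between faces, at 41.4, 41.1, 40.8 and 40.6 CPM. Of 17 neural crest and Schwann cell genes, 12 were higher in the face, 2 in the heart and 3 not called (median 1.61). Zic1 measured 69.6, 70.4, 52.3 and 71.4 CPM in the faces with 2 counts in all 4 hearts, a ratio of 2539-fold (95% counting interval 702 to 20968). The glial Fabp7 (5.28) and the pigment enzyme Dct (4.12) were higher in the face. Mitf, known for pigment cells but also made in heart muscle, was higher in the heart (-2.74), as was the endothelin receptor Ednrb (-1.61).

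Of 28 epithelial genes tested, 20 were higher in the face, 4 in the heart and 4 not called (median 1.34), with 8 higher in the face in B3 alone. Trp63, the factor of stratified ectoderm, measured 27.9, 29.6, 31.1 and 42.2 CPM in the faces and 1.79, 3.23, 4.33 and 3.03 CPM in the hearts. Keratin 5 (Krt5) measured 35.5, 25.7, 54.4 and 76.4 CPM in the faces and 0.347, 0.695, 2.97 and 14.3 CPM in the hearts, where B5 heart 2 was the highest, and Krt15 (3.04) and Krt14 (2.86) were higher in the face. The desmosomal Dsp, which joins heart muscle cells as well as keratinocytes, was higher in the heart (-2.83), and the simple-epithelial keratin Krt18, the most abundant of the list per length, was not called (-0.22, adjusted p = 0.0929, and 0.0453 without B5 heart 1). Cartilage genes differed little, with 9 of 15 higher in the face, 1 in the heart and 5 not called (median 0.66). Sox9 measured 139.5, 136, 103 and 140.2 CPM in the faces and 76.3, 88, 56.6 and 60.3 CPM in the hearts. Col2a1, the most abundant member, differed by 0.63 ± 0.11 SE. Hapln1, already described among the cushion genes, was the member higher in the heart.

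Skeletal muscle genes lay on either side. Of 25 tested, 15 were higher in the face, 5 in the heart and 5 not called (median 2.21). The regulators Myod1 (2.52), Myog (2.40) and Myf5 (2.60), named here after their values were seen, and the fusion gene Mymk (2.98) were called higher in the face by more than 2-fold, and Myog measured 22.6, 10.8, 23.1 and 31 CPM in the faces and 0.843, 4.42, 8.53 and 3.58 CPM in the hearts, where B5 heart 1 was the highest. The contractile genes Tnni2 (-4.22), Myl1 (-3.67), Tnnt3 (-2.90) and Tnnt1 (-2.23), which early heart muscle also makes, were higher in the heart, whereas the contractile genes Tnnc2 (2.90) and Myh3 (2.78) were higher in the face. Tnnt1 was the most abundant, at 142 ± 27.2 TPM in the hearts.

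Genes of nervous system and eye were higher in the face. All 25 neuronal genes tested were higher in the face, 24 by more than 2-fold, with a median of 4.13. Nhlh1, a factor of newborn neurons, measured 23.8, 25.9, 32.1 and 27.9 CPM in the faces and 0, 0.298, 0.247 and 0 CPM in the hearts, and Neurod1 25.5, 21.3, 24.4 and 22.3 and 0, 0.844, 0.0618 and 0.0497 CPM. Neurog1 (7.25) and Neurog2 (6.77), which start sensory neurogenesis, and Nhlh2 (6.44) differed by similar factors, although all the heart counts of Neurog1 came from B3 heart 2, and Tubb3, the neuronal tubulin, was the most abundant at 326 ± 68.7 TPM in the faces. Of 24 genes of neuroepithelium, eye and olfactory placode, 22 were higher in the face (20 by more than 2-fold), 1 was higher in the heart and 1 was not called (median 4.52). Cryaa, the alpha-A crystallin of the lens, measured 25.2, 14.5, 34.5 and 42.1 CPM in the faces and had no count in the hearts, at least 768-fold. Six3, a factor of forebrain and eye, measured 24.2, 23.2, 26.5 and 27.8 CPM in the faces and had no count in the hearts, at least 654-fold. The retinal factor Six6 was at 0 in the hearts as well (at least 210.5-fold). Otx2 had 1 count in the hearts, a ratio of 1038-fold (95% counting interval 186 to 41023), and Sox1, a neuroepithelial factor, differed by 9.58. Among the other leading face genes were Olig2, of oligodendrocyte and motor neuron precursors, at 13.4, 16.8, 25.8 and 24.1 CPM, the antisense transcript Six3os1 at 32, 32.9, 31.2 and 33.1 CPM, Nr2e1 at 14, 20.9, 21.7 and 27 CPM, the melanocyte channel Trpm1 at 26, 27.8, 16.9 and 12.7 CPM, the Notch target Hes5 (7.20) and Pou3f3 (7.04). The member higher in the heart was Cryab (-5.11), a small heat-shock protein of lens and muscle.

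Signalling genes were read by role. Of the ligands of the hedgehog pathway, Shh measured 24.6, 26.9, 22.7 and 29.7 CPM in the faces and 2.48, 15.8, 6.92 and 13.5 CPM in the hearts (1.42 ± 0.43 SE), and Dhh, a ligand of endothelium and Schwann cells, was higher in the heart (-2.43). The receptor Ptch1 was near the threshold (0.54 ± 0.20 SE, adjusted p = 0.0422), at 113, 117, 114 and 126 CPM in the faces and 55.6, 114, 61.4 and 91 CPM in the hearts. Its call was lost without any 1 of the faces, without B3 heart 1 or without B5 heart 1 (adjusted p from 0.0675 to 0.122). The signal transducer Smo (0.88), the coreceptor Gas1 (1.20) and the factors Gli2 (1.32) and Gli3 (1.11) were higher in the face. The target Gli1 was not called (0.78, adjusted p = 0.0501), but was without B3 heart 1 or B3 heart 2 (adjusted p = 0.0452 and 0.00112). In all, 10 of 17 genes were higher in the face, 1 in the heart and 6 not called (median 0.56). In B3 alone 4 were higher in the face, and 3 were higher in the heart without B3 heart 1 and 2 without B5 heart 1. Like the foregut genes above, Shh and Ptch1 stood higher in the second heart replicate of each line than in the first. The 16 homozygous libraries gave 14 of the 17 higher in the face and 1 in the heart (median 1.37). Of all genes tested there, 37.8% were higher in the face. What lies behind these values was not tested.

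Of 28 FGF pathway genes, 18 were higher in the face, 4 in the heart and 6 not called (median 0.66). The heart count was 2 without B3 face 1, B3 face 2, B5 face 1, B3 heart 1 or B5 heart 1, and 6 without B5 face 2. Beside Fgf8 and Fgf17, the ligand Fgf15 was nearly exclusive to the face, at 10.1, 13.2, 12 and 14.8 CPM against 0.0496, 0.0993, 0.124 and 0.0497 CPM. The receptors Fgfr1 (1.26), Fgfr2 (0.88) and Fgfr3 (0.66) and the feedback targets Dusp6 (0.73), Spry1 (0.68) and Etv4 (1.02) were higher in the face. The decoy receptor Fgfrl1 (-0.34) and Fgf12 (-1.31) were higher in the heart, whereas Fgf9 was not called.

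The BMP and TGF-beta pathway was divided, with 21 of 52 genes higher in the face, 23 in the heart and 8 not called. The median was 0.03, and its sign changed with the processing. Ligands higher in the heart included Bmp2 (-1.60), Bmp4 (-0.65), Bmp5 (-1.39), Bmp6 (-1.62), Bmp7 (-1.35), Tgfb1 (-1.58) and Tgfb2 (-0.74) besides Bmp10, while Gdf5 (1.70) and Gdf11 (0.81) were higher in the face. Tgfb3 was not called (adjusted p = 0.0505), but was higher in the heart without B3 face 1 or B3 heart 1 (adjusted p = 0.0325 and 0.0170). Bmp7 measured 195, 136, 154 and 162 CPM in the hearts and 64.5, 59.5, 60.8 and 68.6 CPM in the faces. The receptors were divided, since Acvr1 (-0.92), Tgfbr2 (-0.64) and the coreceptors Tgfbr3 and Eng were higher in the heart, but Bmpr1b (1.23), Tgfbr1 (0.66), Acvr2a (0.55) and Acvr2b (1.04) in the face. The inhibitors Smad6 (-1.90), Smad7 (-0.72) and Bambi (-1.86), which are themselves induced by the pathway, were higher in the heart. Smad6 measured 126, 102, 108 and 111 CPM in the hearts and 28.4, 26.5, 34.2 and 31.2 CPM in the faces. The secreted antagonists Sostdc1 (3.20) and Fst (0.84) were higher in the face, as were the targets Msx1, Msx2 and Id4 (2.18). The transducers Smad1 (0.76), Smad5 (0.67), Smad3 (0.63) and Smad4 (0.36) were slightly higher in the face, Smad9 (-1.31) was higher in the heart, and Smad2 was not called (-0.04).

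**Figure D4:**
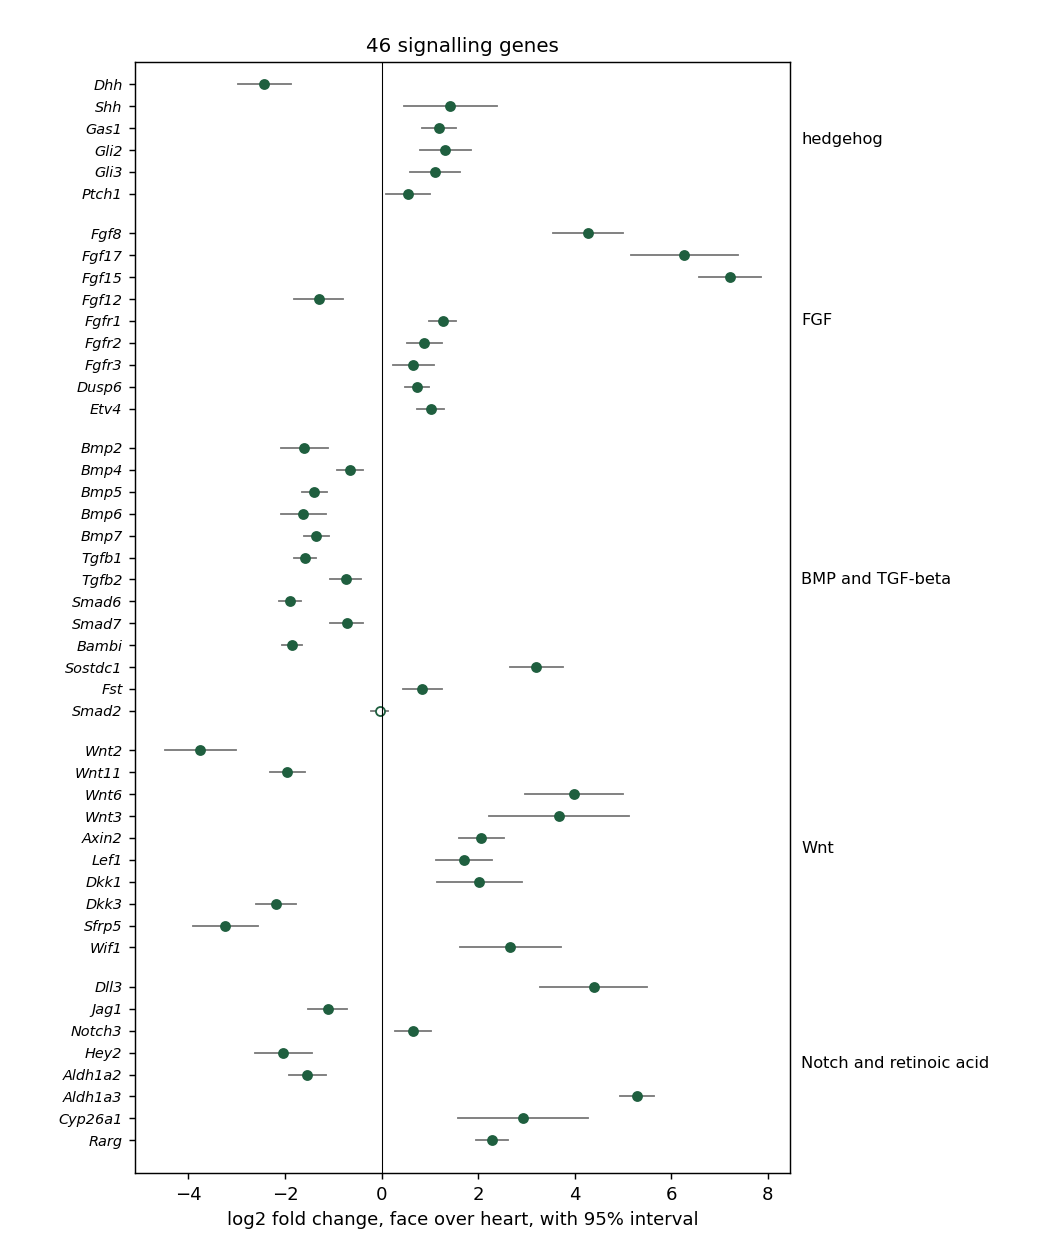
Log2 fold change of face over heart, with the 95% interval of the fit, for 46 signalling genes named in the text, ordered by pathway; filled points have an adjusted p under 0.05. In the BMP and TGF-beta pathway the ligands and inhibitory Smads drawn lie on the heart side and the secreted antagonists drawn on the face side, while the FGF receptors drawn lie on the face side. The genes drawn are a selection, so these sides do not describe the whole groups. The ligands Gdf5 and Gdf11, higher in the face, the decoy receptor Fgfrl1, higher in the heart, and other listed antagonists are not drawn.

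Of 56 Wnt pathway genes, 26 were higher in the face, 8 in the heart and 22 not called (median 0.36). The ectodermal ligand Wnt6 measured 21.4, 23.2, 32.8 and 29.6 CPM in the faces and 0.248, 0.993, 1.42 and 4.82 CPM in the hearts. Wnt3 (3.67), Wnt9b (1.54) and Wnt7a (3.53) were also higher in the face. Wnt2 measured 15, 23.3, 10.3 and 27.2 CPM in the hearts and 1.24, 1.25, 1.45 and 1.66 CPM in the faces, and Wnt11, a ligand of the outflow tract, 34.7, 34.4, 33.5 and 43.1 and 11.5, 6.7, 9.56 and 10.1 CPM. The targets Axin2 (2.07), Lef1 (1.71), Nkd1 (1.15) and Apcdd1 (2.44) were higher in the face, with Axin2 at 96.7, 88.5, 83 and 107 CPM in the faces and 15.2, 29.8, 17.4 and 26.9 CPM in the hearts. Antagonists lay on either side, Dkk1 (2.02), Dkk2 (1.99), Wif1 (2.66) and Frzb (1.61) in the face, and Dkk3 (-2.19) and Sfrp5 (-3.23) in the heart. Wnt7b was not called, with heart values of 1.44, 27, 8.22 and 54.7 CPM that spread widely, but was higher in the face without B3 heart 2 or B5 heart 2 (adjusted p = 0.0435 and 0.0334). Without B5 heart 2 the value of Wnt3 was 5.73.

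Of 20 Notch pathway genes, 12 were higher in the face, 4 in the heart and 4 not called (median 0.56). The ligands Dll3 (4.39) and Dll1 (0.76), used in neurogenesis, were higher in the face, and Jag1 (-1.11) and the vascular Dll4 (-0.84) higher in the heart. The receptor Notch3 was higher in the face (0.65), Notch4, an endothelial receptor, higher in the heart (-0.64), and Notch2 was not called. Hey2, a target of ventricular muscle, measured 61.2, 39.9, 74.9 and 49.8 CPM in the hearts and 11.9, 7.35, 14.7 and 23.8 CPM in the faces, and Hes5, a target of neural precursors, 0.198, 0.0993, 0.185 and 0.199 and 18.4, 26.8, 31 and 28.1 CPM. The 4 neuron markers summed to 424, 507, 689 and 624 CPM in the faces and 17.4, 28.2, 16.9 and 16 CPM in the hearts, and the part of neural tissue in these Notch values was not tested.

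Of 19 retinoic acid genes, 11 were higher in the face, 2 in the heart and 6 not called (median 0.85), with 1 higher in the heart without B3 face 1 or B3 face 2. The enzymes that make retinoic acid differed by gene. Aldh1a3 measured 29.6, 32, 32 and 32 CPM in the faces and 0.546, 0.695, 0.989 and 0.994 CPM in the hearts, while Aldh1a2 measured 27.2, 19.9, 43.3 and 39.5 and 64.3, 93.7, 87.5 and 122 CPM. The degrading enzymes Cyp26a1 (2.93) and Cyp26b1 (1.65) were higher in the face, where Cyp26c1 reached 6.94, 7.69, 3.54 and 6.8 CPM with 1 count in all hearts. The receptor Rarg was higher in the face (2.28), and Rara was not called. Of 23 endothelin, semaphorin and neuregulin genes, 8 were higher in the face, 10 in the heart and 5 not called. The shares over all genes tested were 30.2% and 30.1%. The neuregulin receptor Erbb4 measured 43, 33.7, 31.3 and 21.2 CPM in the hearts and 2.04, 3.09, 2.58 and 4.13 CPM in the faces. The outflow tract guidance genes Sema3c (-1.51), Plxnd1 (-1.54) and Nrp1 (-1.77), the endothelin-converting enzyme Ece1 (-1.91) and Ednrb were higher in the heart, and Edn3 (1.60), Sema3f (1.32) and Ephb2 (1.57) in the face. Ednra, which receives endothelin in crest cells of jaw and outflow tract, was not called and was even in both tissues, at 64.1, 61.4, 61.9 and 71.6 CPM in the faces and 58.6, 73.9, 64.2 and 78.1 CPM in the hearts.

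T-box genes, which include genes that the study placed beside its boundaries, differed in direction from member to member. Of 13 tested, 6 were higher in the face, 4 in the heart and 3 not called. The shares over all genes tested were 30.2% and 30.1%. Tbx5, a factor of atria and left ventricle, measured 85.1, 111, 85.2 and 128 CPM in the hearts and 0.914, 0.859, 0.997 and 2.13 CPM in the faces (-6.35 ± 0.26 SE), and Tbx20, a factor of heart muscle and endocardium, 425, 270.5, 253 and 171 and 0.753, 4.12, 0.499 and 0.947 CPM. Tbx15, a factor of craniofacial mesenchyme, measured 29.4, 22.9, 27.2 and 36.7 CPM in the faces and 0.397, 0.248, 0.556 and 0.547 CPM in the hearts. Tbx22, a palate factor, measured 5.32, 5.24, 5.21 and 7.44 CPM in the faces with 1 count in the hearts, a ratio of 455-fold (95% counting interval 81.4 to 18020). Tbx1, of the pharyngeal arches, was higher in the face (1.88), as were Tbx2 (1.24), Tbr1 (3.99) and Eomes (4.14), and Tbx18, of epicardium and venous pole, was higher in the heart (-2.49). Tbx4 (-2.44, adjusted p = 0.0344) was called higher in the heart, but not without B3 heart 2 (-1.43, adjusted p = 0.2), without B5 heart 2 (-1.54, adjusted p = 0.224) or without any 1 of the faces (adjusted p from 0.0723 to 0.0865). Tbx3, at 57, 48.9, 51.6 and 65 CPM in the faces and 22.1, 43.8, 22 and 55.8 CPM in the hearts, was not called (adjusted p = 0.0779), but was higher in the face without B3 heart 2 or B5 heart 2 (adjusted p = 0.0393 and 0.0121). Of the 4 listed genes beside boundaries B3 and B5, Tbx5 and Smad7 were thus higher in the heart, and Tbx3 and Smad2 were not called.

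Genes of general cell function set the scale of these differences. Of 79 cytosolic ribosomal protein genes tested, 77 were not called and 1 was higher in each tissue, but 19 were higher in the face and 0 in the heart without B5 face 2, and 4 were higher in the heart without B3 heart 2. The 16 homozygous libraries gave 31 of 79 higher in the face, near the share of all genes tested there that were higher in the face (37.8%). The median was 0.01, with a sign that changed with the processing, although their share of TPM was 19.98% to 22.01% in the faces and 13.08% to 16.76% in the hearts, the libraries with more globin. Of 36 cell cycle genes, 17 were higher in the face, 6 in the heart and 13 not called, and none passed the 2-fold test. Ccnd1 (1.11), Cdk4 (0.62) and Mcm5 (0.60) were higher in the face, and Ccnd3 (-1.11), Cdkn1c (-0.9987) and Mki67 (-0.86) higher in the heart. Of 28 collagens, 10 were higher in the face, 11 in the heart and 7 not called, against 30.2% and 30.1% of all genes tested. The basement membrane chains Col4a6 (-3.12) and Col4a5 (-2.80) and the fibril-associated Col14a1 (-1.75) were higher in the heart, Col26a1 (1.90) and Col25a1 (1.35) higher in the face, and Col3a1, the most abundant, was not called. The 10 most abundant genes per length in each organ included Eef1a1, a translation factor, at 9458, 9297, 9677 and 9267 CPM in the faces and 8811, 8452, 11036 and 9984 CPM in the hearts (log2 fold change -0.02, not called), and in the heart H19, an imprinted RNA, at 11632, 9342, 14013 and 12397 CPM against 4193, 3756, 3479 and 2854 CPM in the faces.

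The tissue difference was then compared between the lines. No gene of 15283 was called (0%) for a tissue difference that differed between B3 and B5 with edgeR, against 774 at an unadjusted p under 0.05 and 6 called with DESeq2. Without B5 heart 1, 2 genes were called. By chance alone, about 1 in 20 genes tested has an unadjusted p under 0.05. The smallest p belonged to Gm11808, a model of a gene with no known product (1.49 for B5 minus B3, adjusted p = 0.932). Among the named genes with the smallest p, the neuronal factor Isl2 measured 19.8, 15.2, 23.5 and 19.9 CPM in the faces and 2.18, 3.18, 0.803 and 0.448 CPM in the hearts, where the B5 hearts were below the B3 hearts. Averaged over tissues, B5 against B3 gave 0 called genes (0%) with edgeR as well, with 1216 at an unadjusted p under 0.05 and 91 called with DESeq2, and 29 called with edgeR without B5 face 2. The smallest p there belonged to Gm10259, at 32.5, 19.2, 0 and 0 CPM in the faces and 2.08, 5.21, 0 and 0 CPM in the hearts, a gene model whose reads may be shared with similar copies, so that its level is uncertain. The absence of calls at 2 libraries of each tissue per line does not show that the lines were alike.

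The 16 homozygous libraries gave the same contrast in embryos that the wild-type fit did not use. Those of B3 and B5 share line and set code with the wild-type libraries, and may come from the same litters. In the 16 homozygous libraries, 5725 of 15130 genes tested (37.8%) were higher in the face and 5758 (38.1%) higher in the heart. Of the wild-type calls past 2-fold that were tested there, 1019 of 1021 face genes (99.8%) and 1461 of 1465 heart genes (99.7%) were called in the same direction, and they made up 17.8% and 25.4% of the homozygous calls. Over all wild-type calls the shares were 95.1% for the face and 96.2% for the heart. The library labelled B5 homozygous heart replicate 1 went against its label in part, since it held 17.9 CPM of Six3, 30.5 CPM of Cryaa and 61.8 CPM of Alx1, near face levels, with 751 CPM of Myl2 against 2330 to 3467 CPM in the other 7 homozygous hearts. Without it the shares of calls past 2-fold were 99.9% and 99.7%.

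**Figure D5:**
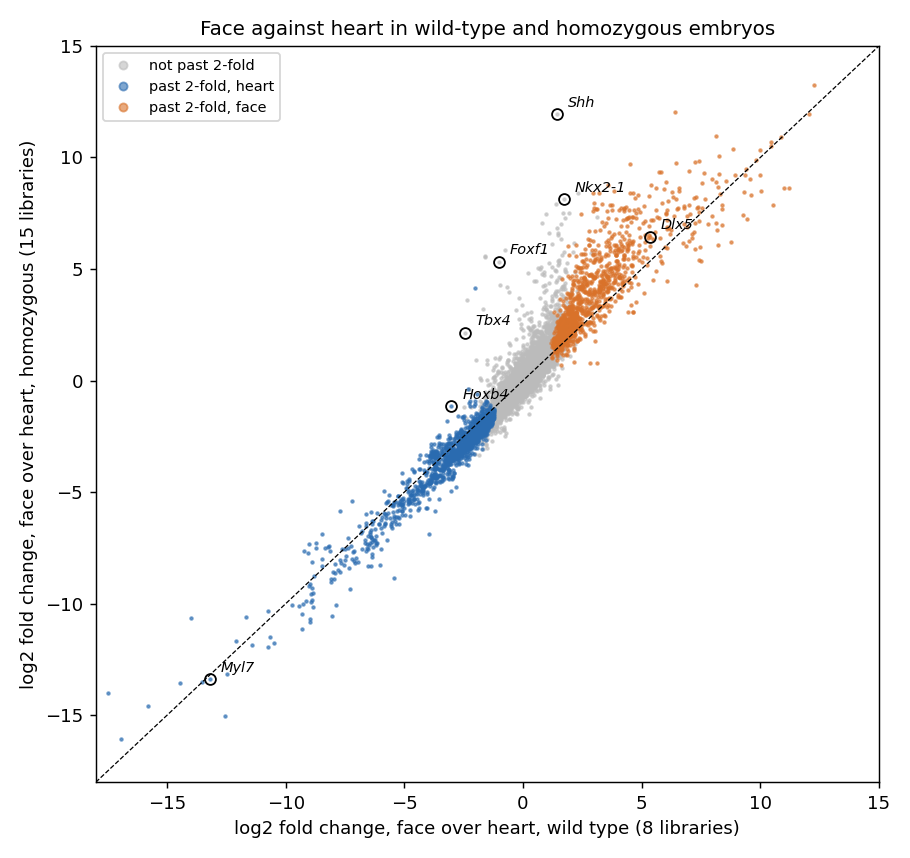
Log2 fold change of face over heart in the 8 wild-type libraries (horizontal axis) against that in 15 homozygous libraries, without the library that went against its label (vertical axis), 1 point per gene tested in both, coloured by the wild-type call past 2-fold, with the line of equal values. Genes called past 2-fold in the wild type lie on the same side in the homozygous libraries in nearly every case, and the foregut genes Shh, Nkx2-1, Foxf1 and Tbx4 and the gene Hoxb4, named on the plot, lie above the line; the fitted values of genes with no count in 1 tissue, such as Shh in the homozygous libraries, depend on the prior count of the fit.

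Some foregut genes had lower values in 7 of the 8 homozygous hearts than in the wild-type hearts. Shh had no count in 7 of the 8 homozygous hearts, against 2.48 to 15.8 CPM in the wild-type hearts, and Foxf1 measured 0.358 to 1.64 CPM there, against 11.2 to 83.5 CPM. In the same 7 homozygous hearts Nkx2-1 measured 0 to 0.258 CPM and Tbx4 0.331 to 1.4 CPM, so that the range of each of these 4 genes lay below the wild-type range except for Tbx4, whose lowest wild-type heart stood at 1.34 CPM. The library labelled B5 homozygous heart replicate 1 held 16.5 CPM of Shh and 28.6 CPM of Nkx2-1. List medians moved in several groups. In the 15 homozygous libraries without that heart, 8 Hox genes were tested, with a median of 0.32 (0.00148 with all 16 libraries), against -1.21 for the same 8 in the wild type. The Dlx median was 6.86 in the 15 libraries and 4.92 in all 16, against 4.75 in the wild type, so that leaving out 1 library made most of that gap. The median of the eye and placode list was likewise 7.46 in 15 libraries and 4.94 in 16, against 4.52, and that of skeletal muscle genes 3.89 and 2.56, against 2.21. Epithelial genes moved to 4.37 in 15 libraries and 3.50 in 16, from 1.34. Lung and foregut genes moved to 2.175 in 15 libraries and 1.84 in 16, from 0.00853. The 11 T-box genes tested in both moved to 2.15 and 1.70, from 0.63. Hedgehog genes moved to 1.60 and 1.37, from 0.56, and Wnt genes to 0.99 and 0.91, from 0.36. The 16 neural crest genes tested in both moved to 4.32 and 3.53, from 1.74. The sarcomere median was -8.08 and -7.91, against -7.11, and the erythroid median -3.27 and -3.12, against -3.78. The difference between wild-type and homozygous libraries in these values was not tested.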

How the data were processed

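RNA-seq of face and heart at E11.5 was read from 8 wild-type and 16 homozygous libraries, 1 table per library. The authors mapped the reads to mm10 with STAR and quantified GENCODE M4 genes with RSEM. The deposited expected counts are estimates that need not be whole, and were rounded here. The deposited TPM are scaled by the authors to transcript length and to a fixed total per library. The strand setting and the handling of reads that map to several genes are not given in the sources used here, and the latter bears on globin and gene copies. Of 43346 Ensembl genes, 42462 were named from the reference table.

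Counts were filtered with filterByExpr (minimum count 10), scaled by TMM and fitted with edgeR 4.0.16 (R 4.3.3, limma 3.58.1) by the quasi-likelihood test, with line as a covariate, and with glmTreat for differences above 2-fold. Adjustment of p-values followed Benjamini and Hochberg, over the genes tested in a fit. DESeq2 1.42.0 was an alternative, as were other size factors, no filter, no covariate, each line alone and leaving out each library. The steps were tested on simulated data. None of 12 replicate pairs was identical, and Spearman's rho was 0.930 to 0.995. Depth was 17075533 to 26483003 counts per wild-type library.

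Genes were named by a rule: the 12 with the largest difference past 2-fold in each direction at 20 CPM or more and without overlap, up to 6 called members and the most abundant member of each list, the members of signalling, T-box, boundary, globin and mitochondrial lists, members given as not called, the 5 with the smallest p in each direction for the line and interaction terms, and the 10 most abundant genes of each tissue. Acta2, Actc1, Afp, Alb, Alx1, Alx4, Apln, Bnc2, Cdh5, Ckb, Dlx2, Ets1, Fli1, Gata2, Gja1, Gpm6a, Hand2, Igf1, Irx3, Isl1, Myf5, Myh3, Myh7, Myl9, Myod1, Myog, Nfatc1, Pecam1, Prdm16, Snai1, Tnnc2 and Tnnt3 were chosen after their values were seen. The comparison, its members and the gene lists were chosen with earlier results of these data known. A few members of these lists are not reported here by name.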

Additional observations from a re-analysis of the deposited data

Results flagged for a closer look

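In wild-type groups of libraries whose values are printed, or whose list sum was computed, the lowest and the highest library were compared with their nearest neighbour. The measure was Dixon's ratio, the gap over the whole range. In the homozygous hearts it was computed for 4 genes only. Of 222 groups of values, 27 passed the 95% critical value (0.829 for 4 libraries, 0.526 for 8), where chance flags about 1 in 20 groups. The 27 include groups with counts in 1 library alone, where the ratio is always 1, so they cannot be read as an excess over chance.

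Single hearts stood apart in the following values. The erythroid sum of B3 heart 2, at 30385 CPM, lay below the next heart at 107944 CPM (ratio 0.855). The mitochondrial transcript mt-Co1 was highest in B5 heart 1, at 9244 CPM (0.930). The Dlx sum was highest in B3 heart 2 (13.9 CPM, 0.831), as were Afp (144 CPM, 0.954) and Neurod1 (0.844 CPM, 0.927). The cell cycle sum was highest in B3 heart 1 (7691 CPM, 0.988), Wnt11 was highest in B5 heart 2 (43.1 CPM, 0.877), and Hes5 was lowest in B3 heart 2 (0.0993 CPM, 0.865).

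Among the faces, B5 face 1 was the lowest for Sox9 (103 CPM, ratio 0.888) and Zic1 (52.3 CPM, 0.906). B5 face 2 was the highest for Tbx5 (2.13 CPM, 0.891) and Tbx22 (7.44 CPM, 0.9501), B3 face 2 the highest for Tbx20 (4.12 CPM, 0.876), and B3 face 1 the lowest for Aldh1a3 (29.6 CPM, 0.988). The ratio was 1 where counts were found in 1 library of a tissue alone, which was so for Afp, Myl2, Nppa and Pln in the faces and for Cyp26c1, Nr2e1, Olig2, Six3os1 and Tbx22 in the hearts.

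The library labelled B5 homozygous heart replicate 1 stood apart from the other 7 homozygous hearts by this ratio in the 4 genes it was computed for. These genes had already been used above to describe that library, so the ratio is no separate support. Myl2 was the lowest there (751 CPM, ratio 0.581), and Six3 and Cryaa, at 0 in the other 7, had a ratio of 1, with Alx1 at 61.8 CPM against at most 1.27 CPM (0.982).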

How the results depend on the processing

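No paired analysis was possible because the labels do not tie a face to a heart of the same embryo, and replicate numbers were given in accession order only.

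The count of face-heart differences ran from 8296 to 9337 when a library was left out, against 9213, and stayed within 1.5 times of it in every alternative run. Past 2-fold it ran from 2379 to 2854, against 2572, with 1675 in B3 alone and 3859 when an adjusted p and a fitted 2-fold difference were asked for in place of the test against 2-fold. In the homozygous libraries B3 and B5 alone gave 7639 calls against 11483, from fewer libraries. For B5 against B3, where edgeR called 0, DESeq2 called 91, the unfiltered fit 12 and the fits without 1 library 0 to 29 (29 without B5 face 2). For the interaction DESeq2 called 6 and the fits without 1 library 0 to 2.

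Of 4718 alternative values for 295 named genes, 4627 kept their direction and their side of the threshold. Calls were lost in B3 alone, 2 against 2, for Bnc2, Ckb, Cx3cr1, Fgfr3, Fst, Gdf5, Gli3, Gpm6a, Hoxa2, Hoxa5, Hoxb6, Hoxc5, Isl1, Nkx2-1, Notch3, Ptch1, Rbp4, Shh, Smad4, Tbx4 and Vtn, and in B5 alone for Fgfrl1, Gdf5, Gja1, Mki67 and Spry1. Direction turned for Hba-a2 in B5 alone (0.84) and for Gm10259 with the homozygous libraries added (-0.12). The cause of these changes was not tested. Summed as CPM in place of TPM, 25 of 38 lists moved by more than the spread between libraries. Of the lists whose TPM sums did not overlap between the tissues, 3 turned to the heart side: cushion genes (log2 of face over heart -0.44, from 0.61), epithelial genes (-0.12, from 0.91) and ribosomal proteins (-0.00267, from 0.53). In all, 8 sums went from the face side to the heart side, also those of T-box, BMP and TGF-beta, endothelin and semaphorin, collagen and sex-linked genes, and 1, of skeletal muscle, went the other way (0.25, from -0.66). Counts of list members higher in the face also fell in B3 alone for signals and matrix (11, from 17), BMP and TGF-beta (13, from 21) and lung and foregut genes (3, from 7), and in B5 alone for cell cycle genes (10, from 17). Mitochondrially encoded genes higher in the heart fell to 9 in B3 alone, from 14. Genes with few counts in 1 tissue have no reliable fold change at this depth.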

Other observations

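By gene type, 985 of 14171 protein-coding genes tested (6.95%) were higher in the face past 2-fold with edgeR and 1448 (10.2%) higher in the heart. Among 207 long intergenic noncoding RNAs 23 (11.1%) were higher in the face and 19 (9.18%) in the heart, and among 227 antisense transcripts 17 (7.49%) and 24 (10.6%). Processed pseudogenes rarely passed, with 3 and 5 of 245. Whether these shares differ between gene types was not tested, and antisense reads cannot be told from those of their partners.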
